A study of Homo sapiens with 4 samples.

Results

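The genes examined here encode the KLF, SP and EGR zinc finger factors, a group of transcription factors that bind GC-rich promoter DNA. All protein-coding genes of GENCODE version 44 whose symbol is KLF with a number, SP1 to SP9 or EGR1 to EGR4 were taken, which gave 31 of 20046 protein-coding genes (18 KLF, 9 SP and 4 EGR genes). The rule itself uses gene symbols and no measured value, but the group was chosen with earlier results of these data known. meRIP-seq, in which fragmented RNA is pulled down with an antibody against N6-methyladenosine (m6A) and sequenced, was carried out in OE-19 cells, an established line of adenocarcinoma of the esophagogastric junction (AEG), grown in RPMI1640 with serum and antibiotics. The 4 samples were 2 m6A IP and 2 input samples, numbered 1 and 2 in each group, all of the same line with no treatment named, and peak lists were analysed for the m6A IP samples only. The labels do not say whether the replicates were separate cultures, and the depth of the libraries is unknown because the lists give no read numbers.

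KLF and SP proteins carry a conserved array of C2H2 zinc fingers close to the C terminus and recognise GC boxes and CACCC boxes, whereas the N-terminal part differs between members and recruits coactivators or corepressors. EGR proteins bind a related GC-rich element with a similar array and are encoded by immediate-early genes, whose mRNAs appear within minutes of growth factor signalling and decay quickly. Several members shape the gut epithelium: KLF4 is known for differentiation of surface cells and KLF5 for proliferation in crypts. m6A is deposited on mRNA by the METTL3 and METTL14 complex, mostly in long internal exons and around the stop codon, and often at an adenine in the core sequence GGAC.

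The windows of strongest m6A enrichment are shown first, because the sequence at a summit is where the IP reads piled up most. They belong to the 6 members whose best shared peak ranked highest by the geometric mean of both fold enrichments, plus a coding-sequence summit for EGR, and are given for the replicate 1 summit, 5′ to 3′ on the strand of the gene, from the hg38 reference sequence. Capitals mark GGAC. In coding sequence (CDS) the windows extend 50 bases to either side of the summit, and in a UTR they hold 29 bases. They lie at chr2:10048182-10048282 (KLF11, exon 3, plus strand), chr2:207124229-207124329 (KLF7, exon 2, minus strand), chr7:20784538-20784638 (SP8, exon 2, minus strand), chr7:21511143-21511243 (SP4, exon 6, plus strand), chr9:70413215-70413315 (KLF9, exon 1, minus strand), chr5:138465575-138465603 (EGR1 5′ UTR, exon 1, plus strand) and chr5:138467959-138468059 (EGR1 CDS, exon 2, plus strand).
KLF11: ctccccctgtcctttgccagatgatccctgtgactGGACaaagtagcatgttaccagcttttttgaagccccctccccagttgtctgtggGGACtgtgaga
KLF7: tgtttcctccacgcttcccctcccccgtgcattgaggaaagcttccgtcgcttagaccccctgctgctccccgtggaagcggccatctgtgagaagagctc
SP8: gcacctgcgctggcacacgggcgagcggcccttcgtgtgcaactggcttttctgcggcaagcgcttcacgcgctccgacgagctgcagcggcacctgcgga
SP4: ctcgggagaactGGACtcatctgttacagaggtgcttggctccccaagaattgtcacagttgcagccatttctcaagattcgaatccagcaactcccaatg
KLF9: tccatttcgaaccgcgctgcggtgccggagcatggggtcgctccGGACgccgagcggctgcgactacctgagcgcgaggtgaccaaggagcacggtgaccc
EGR1 5′ UTR: cgcagccgcggcgcgtccacgcccgcccg
EGR1 CDS: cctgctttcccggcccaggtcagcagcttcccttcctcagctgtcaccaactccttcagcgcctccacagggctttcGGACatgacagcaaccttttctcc

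Measured from the summit to the adenine of GGAC, positive towards the 3′ end, the distances were -13 and 42 nt in KLF11, -36 nt in SP4, -4 nt in KLF9 and 29 nt in the EGR1 CDS window. The KLF7, SP8 and EGR1 5′ UTR windows held no GGAC, which says only that these letters are not in these windows. The EGR1 5′ UTR window is the shorter kind, and GGAC did lie within 50 nt of that summit. In replicate 2, GGAC lay within 50 nt of the KLF7 exon 2 summit but not of the SP8 summit. The SP8 window lies inside the stretch that encodes its zinc fingers.

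Of the 31 genes, 21 (67.7%) had at least 1 peak summit inside their exons in replicate 1, where 42.4% of all protein-coding genes did. In replicate 2, 19 genes (61.3%) had one, against 34.1% of all protein-coding genes. The same 19 genes had an exonic summit in both replicates (61.3%, 95% Wilson interval 43.8 to 76.3%), against 33.4% of all protein-coding genes, and 10 genes (32.3%) had none in either, against 56.9%. The intervals given here cover counting error only. Among genes whose summed exon length lay between the quartiles of the group (3148 to 6182 nt), 9 of 15 members (60%) and 35.6% of 6758 protein-coding genes had a summit in both replicates. The median exonic length was 3707 nt for the members and 4416 nt for all protein-coding genes. These shares describe the lists and no test was run on them. A gene with no RNA in OE-19 cells and a gene whose RNA has no m6A cannot be told apart, since a peak needs both and the lists hold no RNA level.

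By subfamily, 11 of 18 KLF genes (61.1%), 7 of 9 SP genes (77.8%) and 1 of 4 EGR genes (25%) had a summit in both replicates. These were KLF2, KLF3, KLF4, KLF5, KLF6, KLF7, KLF9, KLF10, KLF11, KLF13, KLF16, SP1 to SP6, SP8 and EGR1. KLF12 and EGR3 had exonic summits in replicate 1 only. No exonic summit was listed in either replicate for KLF1 (the erythroid activator of beta-globin), KLF8, KLF14, KLF15 (a regulator of gluconeogenesis and of muscle metabolism), KLF17, KLF18, SP7 (osterix, the osteoblast factor), SP9, EGR2 (the myelination and hindbrain factor) and EGR4. KLF8 was without a summit although it has the longest exonic sequence of the KLF genes, 12729 nt.

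**Figure D1:**
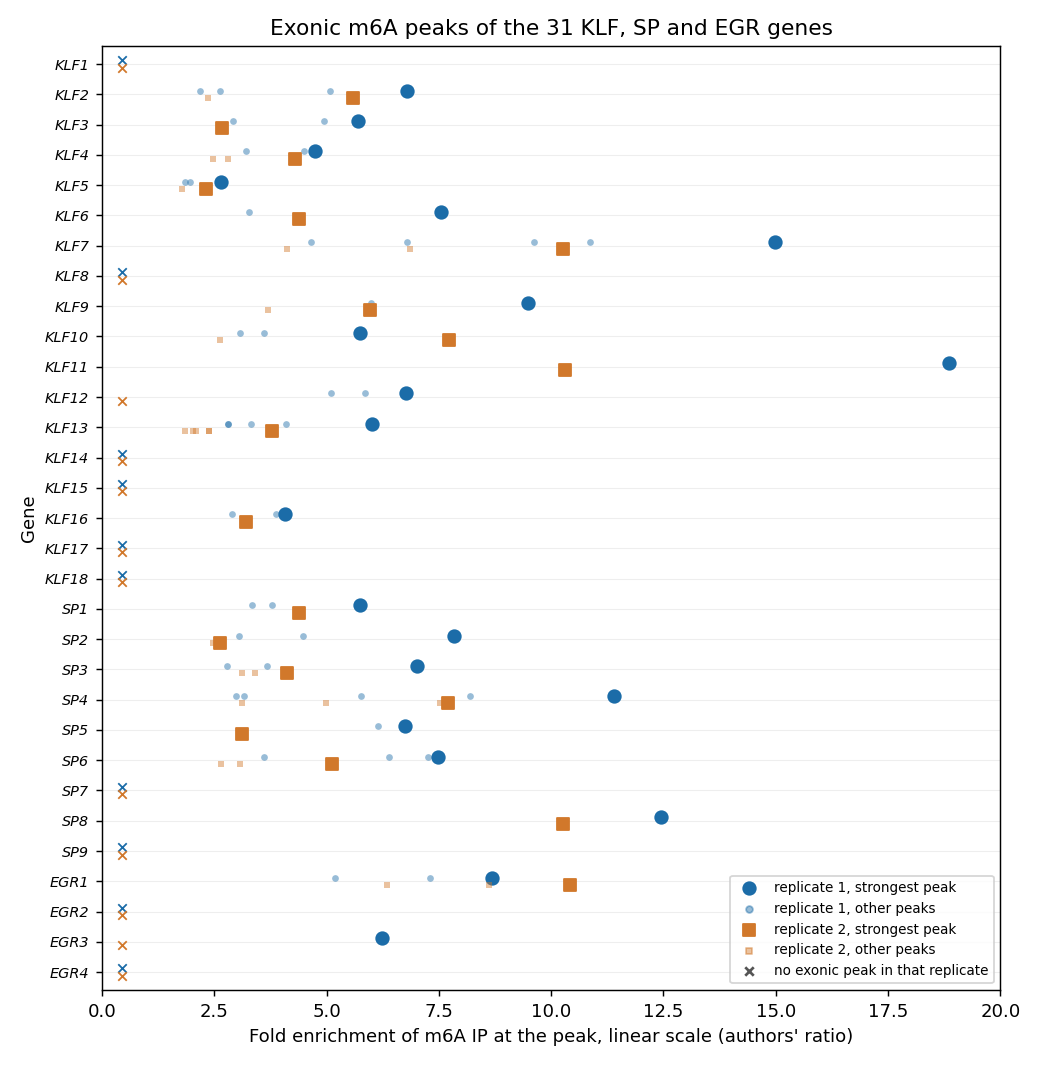
Fold enrichment (linear axis, the ratio given by the authors' peak caller) of every exonic m6A peak of the 31 genes, with replicate 1 as blue circles and replicate 2 as orange squares, the strongest peak of each gene drawn large, and a cross near 0 where that replicate listed no exonic peak (no value is plotted there). KLF11 reaches 18.9 and 10.3, KLF5 stays at or under 2.66, and 10 genes have crosses for both replicates.

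Across all members there were 62 exonic peaks in replicate 1 and 42 in replicate 2. A member with a peak carried 2.95 of them on average in replicate 1 (2.28 over all protein-coding genes with a peak) and 2.21 in replicate 2 (1.84 over all). Genes with 3 or more peaks made up 15 of 21 members (71.4%) in replicate 1 against 32.01% of all genes with a peak, and 7 of 19 (36.8%) against 20.2% in replicate 2. Several peaks on one mRNA share its reads and are not independent observations. The median fold enrichment of member peaks was 5.09 in replicate 1 (range 1.84 to 18.9) beside 5.21 over all exonic peaks, and 3.55 in replicate 2 beside 4.72 over all.

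The TGF-beta-inducible repressors KLF10 and KLF11, which recruit the SIN3A corepressor, both carried shared peaks, of which only that of KLF11 was among the strongest of the group. KLF11 had a single peak in each replicate, at chr2:10047675-10048645 in replicate 1, with fold enrichments of 18.9 and 10.3. The summits lay inside exon 3 and the CDS, at -642 and -631 nt from the stop codon. In replicate 1 the peak was 971 bp wide and the exon 946 nt long, so the peak extended beyond it. The KLF11 peak was the strongest member peak in replicate 1 and by the geometric mean of both replicates, whereas in replicate 2 the EGR1 5′ UTR peak stood at 10.4. The geometric mean of the KLF11 pair lay at percentile 97.8 of all 10829 paired exonic peaks. KLF10 peaked at the stop codon with fold enrichments of 5.75 and 7.72 in replicates 1 and 2, and in its exon 3 with 3.61 and 2.64. The KLF10 stop codon peak was thus among the few with a higher value in replicate 2. A further KLF10 peak in exon 3 (3.08) was listed in replicate 1 only.

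KLF6 and KLF7 are widely expressed activators of one subgroup. KLF7, known for its part in neuronal development, had 5 peaks in replicate 1 and 3 in replicate 2. Its strongest peak, at chr2:207123806-207124439 in exon 2, reached 14.99 and 10.3, the peak in exon 1 reached 9.63 and 4.11, and the peak in exon 3, whose summit fell in the zinc finger stretch in both replicates, reached 6.79 and 6.85. The exon 3 values were level between replicates while those of exon 1 differed by 1.23 on the log2 scale. A KLF7 peak just past the stop codon was enriched 10.9-fold in replicate 1 but had no counterpart in replicate 2, and this was the highest value among the 21 member peaks that were not shared. KLF6 showed 7.54 and 4.38 in exon 2, and a 5′ UTR peak of 3.28 in replicate 1 only.

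KLF2, which maintains endothelial and T cell quiescence, had its strongest peak just after the stop codon, with fold enrichments of 6.79 and 5.60 and summits 50 and 58 nt into the 3′ UTR. Its 5′ coding peak reached 5.08 in replicate 1 and 2.35 in replicate 2, with the summit in exon 1 and exon 2, respectively. Replicate 1 listed a separate KLF2 peak in exon 2 (2.19), close in position and in value to the replicate 2 peak. KLF4 had 3 exonic peaks in each replicate. The KLF4 stop codon peak had almost equal values of 4.50 and 4.29, but its summit lay at -77 nt in replicate 1 and 157 nt in replicate 2. The KLF4 exon 3 peak was 1356 bp wide in replicate 1 and reached 4.73 and 2.80.

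KLF5 carried the weakest peak pair of the group, in exon 1. Its fold enrichment was 2.66 and 2.31 in exon 2 and 1.96 and 1.79 in exon 1, with -log10 q of 24.8 and 22.4 in exon 2. A peak at the KLF5 stop codon (1.84) was listed in replicate 1 only. Low ratios at KLF5 thus came with small q-values, and the exon 2 summits lay 3 bases apart in the 2 replicates.

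KLF3 and KLF12 are repressors that bind the corepressor CTBP. KLF3 showed a stop codon peak of 5.71 and 2.67 whose summits coincided to the base, inside the sequence for the zinc fingers. Its 5′ UTR peak (4.94, replicate 1 only) lay in exons of both KLF3 and the antisense gene KLF3-AS1, and the lists carry no strand, so that peak is uncertain. KLF12 had 3 peaks in replicate 1, with 6.78 in the 3′ UTR, 5.86 in the CDS of exon 4 and 5.10 at the stop codon. None of these had an overlapping peak in replicate 2, although all 3 were above 5-fold.

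KLF9, KLF13 and KLF16 form a subgroup of short proteins that act through SIN3A. KLF9, which is induced by glucocorticoid and thyroid hormone, had a peak over exon 1 with fold enrichments of 9.49 and 5.97 and -log10 q of 66.6 and 48.3, the largest of the member peaks in each list. The KLF9 summits in exon 1 lay 2 bases apart. At its stop codon KLF9 reached 5.998 and 3.69. KLF13, an activator of CCL5 in T lymphocytes, had 4 of 5 peaks in replicate 1 and 3 of 6 in replicate 2 in its long 3′ UTR, with summits of the shared ones 1122, 1796 and 3872 nt past the stop codon in replicate 1 and at most 48 nt away from these in replicate 2. These 3′ UTR peaks had fold enrichments of 6.01 and 3.79, 3.32 and 2.03, and 2.81 and 2.09. The first of them was the widest member peak at 1822 bp in replicate 1. KLF16 had 1 shared peak, at the stop codon, with 3.88 and 3.21. Its 3′ UTR peaks (4.09 and 2.89) were listed in replicate 1 only, and the summit of the weaker one also lay in an exon of a lncRNA gene of the other strand.

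SP1 and SP3 are the ubiquitous GC-box factors, with long glutamine-rich activation domains. SP1 reached 5.74 and 4.38 in exon 3, in a peak 1431 and 1183 bp wide, at chr12:53382117-53383547 in replicate 1. Its peaks in exon 2 (3.34) and at the stop codon (3.79) were found in replicate 1 only. SP3 had 7.01 and 3.68 in 2 neighbouring exon 4 peaks of replicate 1, which a single peak of 4.12 covered in replicate 2. The stop codon peak of SP3 was level, at 2.79 and 3.12. A 5′ UTR peak of SP3 (3.40) was listed in replicate 2, and the replicate 1 peak overlapping it had its summit outside the gene.

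SP4, best known from neurons, had 5 peaks in replicate 1 and 4 in replicate 2, of which 4 were paired between them. The fifth replicate 1 peak, in exon 3 (2.99), was not shared. The peak at its stop codon (chr7:21511026-21511382) reached 11.4 and 7.70, with summits 4 bases apart. In exon 3, SP4 reached 8.19 and 7.53, in the 5′ UTR 5.77 and 4.99, and in exon 2 3.15 and 3.12. The values of SP4 outside the stop codon were close between replicates. SP2 reached 7.84 and 2.46 at its stop codon, the largest replicate difference among the paired member peaks (1.67 on the log2 scale), and 3.06 and 2.62 in exon 3, where the difference was 0.22.

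SP5, SP6 and SP8 belong to the developmental SP genes and have 2 exons each in the transcripts used. SP5, a Wnt target, reached 6.76 and 3.11 in exon 2, and 6.14 in exon 1 in replicate 1 only. SP6, known from tooth and skin development, had 3 shared peaks, with 7.49 and 2.65 in the 5′ UTR, 7.26 and 5.13 in the CDS and 6.39 and 3.07 2072 and 2097 nt past the stop codon. SP8, a limb and forebrain factor, had a single strong peak of 12.4 and 10.3 at chr7:20784487-20784963, in exon 2. The SP8 summits were 188 bases apart and fell inside the zinc finger stretch in replicate 1 and at -85 nt from its start in replicate 2.

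EGR1, the best-studied immediate-early member, was the only EGR gene with peaks in both replicates, and all 3 of its peaks were shared. The EGR1 5′ UTR peak (chr5:138465544-138465674) had fold enrichments of 7.30 and 10.4, the CDS peak 5.18 and 6.35, and the peak before the stop codon 8.68 and 8.61. Unlike most members, EGR1 was higher in replicate 2 at the 5′ UTR and CDS peaks and level at the third. EGR3 had 1 peak of 6.24 in its CDS in replicate 1, with its summit at -21 nt from the start of the zinc finger stretch, and none in replicate 2.

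Summits were placed on the transcript with the longest CDS, counting the 200 nt on either side of the stop codon as a region of its own. In replicate 1, 31 of 62 member summits (50%) lay in the remaining CDS, 15 (24.2%) around the stop codon, 10 (16.1%) in the remaining 3′ UTR and 6 (9.68%) in the 5′ UTR. Over all protein-coding genes these shares were 49.3, 24.5, 17.3 and 8.86%. In replicate 2 the 42 member summits divided into 21 (50%) CDS, 11 (26.2%) stop codon, 4 (9.52%) 3′ UTR and 6 (14.3%) 5′ UTR, and all protein-coding genes into 48.2, 27.1, 18.9 and 5.70%. The Wilson intervals of the member shares held the share of all genes for CDS, stop codon and 3′ UTR in both replicates. For the 5′ UTR in replicate 2 the interval was 6.72 to 27.8%, which began above the share of all genes. In replicate 1 it was 4.51 to 19.5%, which held the share of all genes. The 6 replicate 2 summits in the 5′ UTR belonged to KLF4, KLF13, SP3, SP4, SP6 and EGR1. Of these, KLF4 had its summit 242 nt from the transcript start and the others 71 to 198 nt. Within 200 nt of the transcript start lay 14.3% of member summits in replicate 2, against 3.73% over all genes. In replicate 1 these shares were 11.3 and 8.42%.

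Every member with a peak had at least 1 summit in the CDS or around the stop codon in that replicate. In replicate 1, 13 of 21 members had both a CDS and a stop codon summit, as did 9 of 19 in replicate 2. The strongest peak of a gene was in the CDS for 11 of 21 and 11 of 19 members, and around the stop codon for 6 members in each replicate. No such counts are given for all genes with a peak, so these do not set the members apart. Summits sat in exons of 400 nt or more in 83.9% and 88.1% of cases (75.2% and 88.9% over all genes), and in the last exon in 46.8% and 42.9% (50.7% and 59.6% over all genes). The interval of the last exon share in replicate 2, 29.1 to 57.8%, ended below the share of all genes. In replicate 1 the interval, 34.9 to 59.0%, held the share of all genes. These intervals treat summits as independent, which those of one gene are not.

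**Figure D2:**
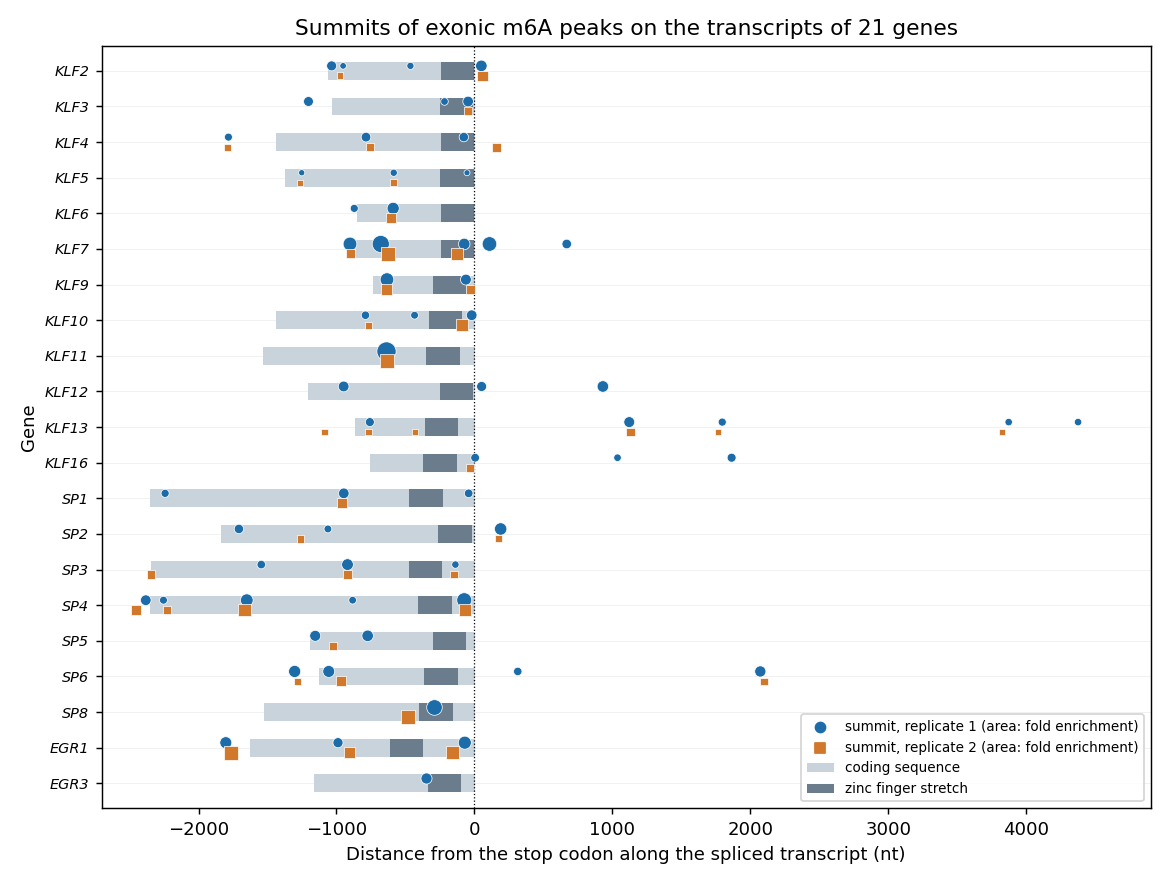
Positions of the exonic peak summits of the 21 genes with a peak, as distance in nt from the stop codon along the spliced transcript, with light bars for coding sequence, dark bars for the zinc finger stretch, blue circles for replicate 1 and orange squares for replicate 2, and symbol area proportional to fold enrichment. Most summits lie before or near the stop codon, and the KLF13 summits reach 4375 nt past it in replicate 1 and 3824 nt in replicate 2.

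The zinc finger stretch gave a landmark that all members share. A search for Cys and His residues at C2H2 spacing in the translated CDS found 3 fingers in each of the 31 proteins, over 243 nt in KLF and SP genes and 237 nt in EGR genes, a median of 19.4% of the CDS. It ended a median of 13.5 nt before the stop codon in KLF genes, 165 nt in SP genes and 132 nt in EGR genes, so the stop codon window of all 18 KLF genes takes in part of it. In replicate 1, 7 of 41 coding summits (17.1%, 95% Wilson interval 8.53 to 31.3%) fell in the stretch, which made up 17.3% of the CDS of those genes. In replicate 2 the count was 3 of 29 (10.3%, interval 3.58 to 26.4%) beside 17.5% of the CDS. Upstream of the stretch, in the part of the CDS that differs between members, lay 15 of 22 coding summits of KLF genes in replicate 1 (68.2%), where this part made up 75.1% of the CDS of those genes. In SP genes it held 12 of 16 (75%) and made up 78.8%. In replicate 1 neither share was above that of the length. In replicate 2 the upstream part held 12 of 17 coding summits of KLF genes (70.6%) and made up 73.1% of their CDS. For SP genes in replicate 2 it held 8 of 10 (80%), slightly above its 78.8% of the CDS.

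**Figure D3:**
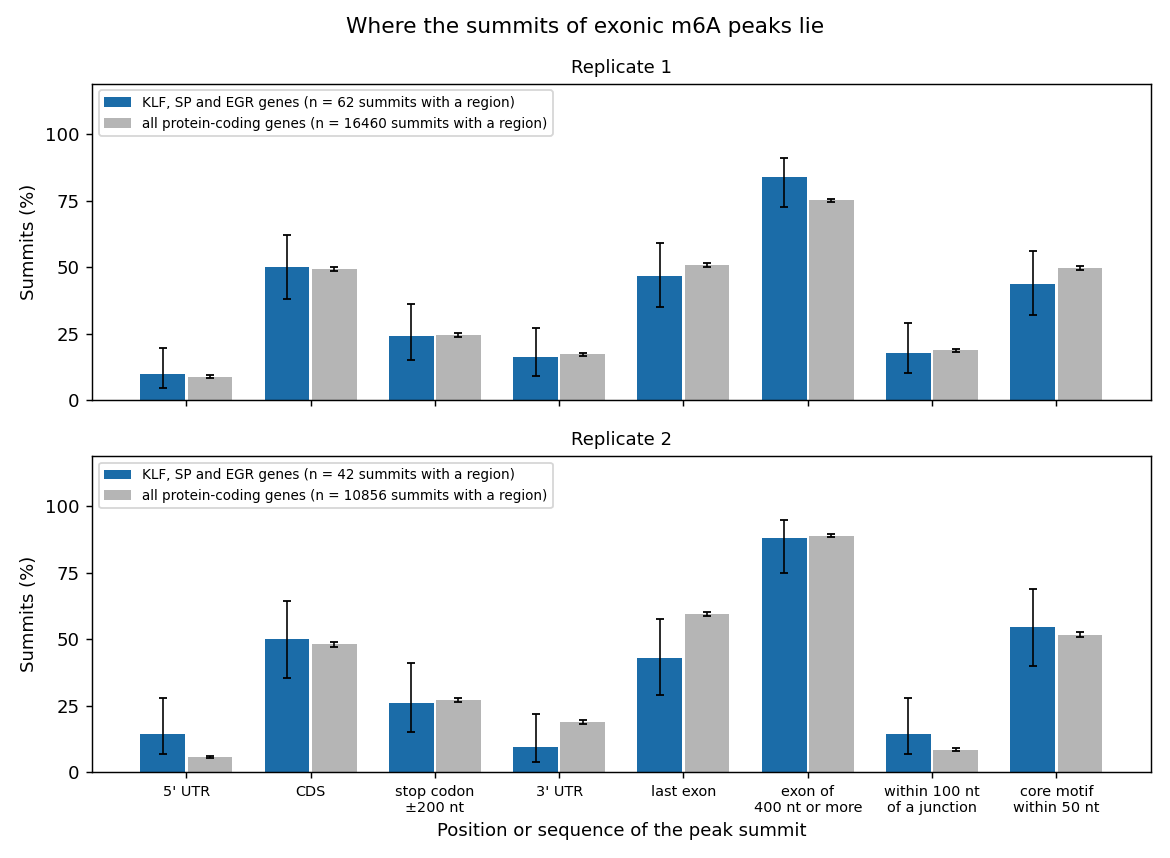
Percent of peak summits in each transcript region or with each feature, for the 31 genes (blue) and all protein-coding genes (grey), with 95% Wilson intervals as error bars, replicate 1 above and replicate 2 below; the core motif is GGAC on the gene's strand. The CDS bars stand at 50% for the group in both replicates beside 49.3 and 48.2%, and the intervals of the group are wide because it has 62 and 42 summits.

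GGAC was searched within 50 nt of each summit on the strand of the gene. It was found at 27 of 62 member summits in replicate 1 (43.5%, interval 31.9 to 55.9%; all genes 49.8%) and at 23 of 42 in replicate 2 (54.8%, interval 39.9 to 68.8%; all genes 51.8%). The longer GGACT, which contains GGAC, was at 16.1% and 16.7% of member summits beside 17.7% and 18.9% over all genes. On the opposite strand, read as GTCC, the shares were 40.3% and 28.6% for members and 31.4% and 29.5% for all genes. In replicate 1, 27 member summits thus had the motif on the gene's strand and 25 on the opposite strand. When every exonic position of the 19 genes with peaks in both replicates was taken, GGAC lay within 50 nt of 39.4% of 29110 positions inside a peak and of 20.6% of 77336 positions outside. Neighbouring positions share their sequence, so these percentages are descriptions of the exons. The positions inside and outside were not matched for transcript region or base composition, and no values are given over all genes.

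Peaks were called for each replicate separately. Of the 62 member peaks of replicate 1, 41 (66.1%) overlapped a replicate 2 peak by at least 1 bp, beside 60.6% over all exonic peaks, and all 42 of replicate 2 (100%) overlapped a replicate 1 peak, beside 95.9%. Replicate 1 is the longer list, with 24607 peaks against 19318. In replicate 1 the median enrichment was 5.77-fold for shared member peaks and 3.79-fold for the 21 that were not shared, beside 6.47 and 3.96 over all exonic peaks. When each peak was matched with the peak it overlapped most, and the match held in both directions, 38 pairs resulted, with summits a median of 29.5 bases apart along the genome and 24 of 38 within 50 bases. The longest distance, 623 bases, was in SP3. Summit distances are not given for the pairs of all genes.

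Fold enrichment was higher in replicate 1 in 32 of 38 pairs (84.2%) and in 80.6% of all 10829 pairs. The median log2 ratio of replicate 1 over replicate 2 was 0.44 (range -0.51 to 1.67), and 0.44 over all pairs. By subfamily it was 0.67 over 21 KLF pairs, 0.33 over 14 SP pairs and -0.29 over the 3 EGR1 pairs. The 6 pairs higher in replicate 2 were 2 of EGR1, 2 of SP3, 1 of KLF7 and 1 of KLF10. One of the SP3 pairs joins summits 623 bases apart, and the replicate 1 peak of SP3 with its summit 2 bases from the replicate 2 summit had 7.01 beside 4.12, so at that site replicate 1 was higher. The CDS pairs of KLF2 and KLF13 also join distant summits, 277 and 328 bases apart. Unpaired peaks lay nearer, in KLF2 one of 2.19 in replicate 1 beside 2.35. In KLF13 it was one of 2.39 in replicate 2 beside 4.09, where the paired peak had 1.84. The KLF median was not recomputed for other pairings. Across member pairs, log2 fold enrichment in the 2 replicates had a Pearson correlation of 0.75, and 0.70 over all pairs, which is a description across peaks that share libraries and genes. The median geometric mean of a pair was 4.65 for the members and 5.64 for all pairs.

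**Figure D4:**
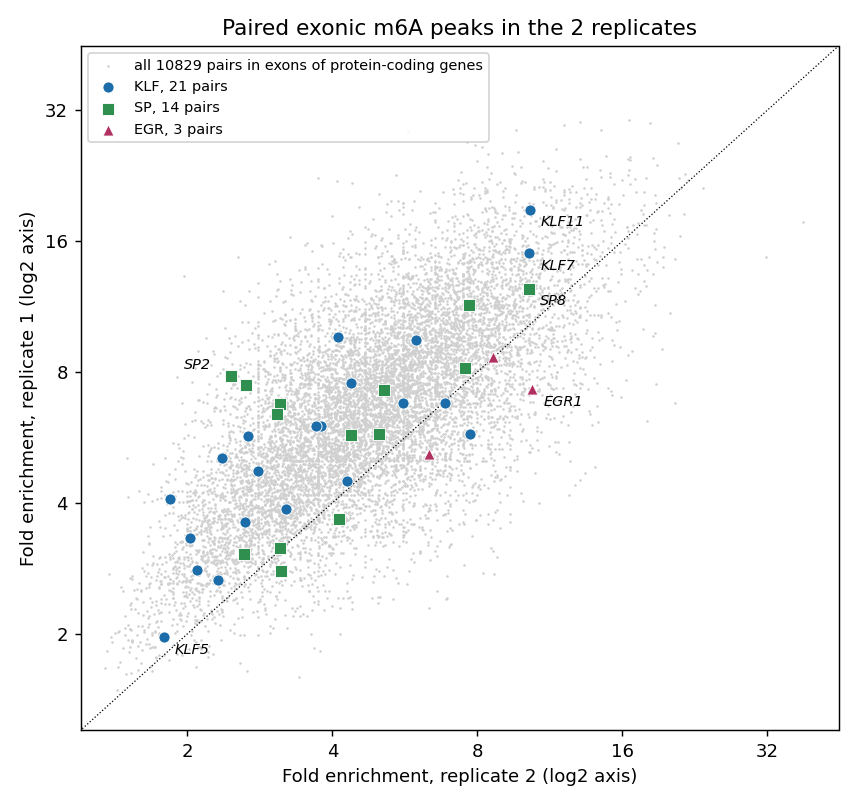
Fold enrichment of paired exonic peaks in replicate 1 against replicate 2 (log2 axes, dotted line at equal values), with 21 KLF, 14 SP and 3 EGR pairs over all 10829 pairs in grey. Of the 38 coloured points, 32 lie above the line, KLF11 and KLF7 at the top, while EGR1 lies below it at 2 of its 3 peaks.

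Lists of genes related to the group, among them other GC-box zinc finger genes, were read the same way. Of these 39 genes, 27 (69.2%) had an exonic summit in both replicates, beside the 33.4% of all protein-coding genes. The lists were chosen with earlier results of these data known, and no share matched by exonic length was computed for them. Among corepressors and coactivators the count was 9 of 13, among them SIN3A with its strongest peak at 10.1 and 6.48, NAB2, the EGR corepressor, at 12.3 and 7.85, and CTBP1 at 9.75 and 4.49. HDAC1, HDAC2 and HDAC3 had no exonic summit. In the ubiquitin pathway of KLF5 and KLF4 it was 5 of 7, with FBXW7, a ubiquitin ligase subunit, at 22.2 and 17.0, above every member of the group in both replicates. Of the ETS and SRF regulators of EGR transcription 5 of 10 had one, and of other GC-box zinc finger genes 8 of 9, with ZNF281 at 14.4 and 10.8.

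The cell line could not be checked by RNA level. Of 7 epithelial markers, CDH1 had an exonic summit in both replicates, VIL1 in one and EPCAM, KRT8, KRT18, KRT19 and ERBB2 in neither. Of 8 markers of fibroblasts, leukocytes and endothelium, CD68 had summits in both replicates, COL1A1 in one and the other 6 in neither. Marker peaks were thus few in both sets.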

How the data were processed

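meRIP-seq was done by the authors on OE-19 RNA with an anti-m6A antibody, and reads were sequenced as paired ends on an Illumina NovaSeq. The labels mention UV fixation and lysis of the cells, whereas the methods give DNase-treated, fragmented total RNA. The submitters' processing notes name fastp, HISAT2 and MACS2 with build hg38, while the methods name TopHat2 as the aligner, and tool versions and the use of the input as a control are not given in the sources used here. The authors deposited 1 MACS2 narrowPeak list per m6A IP sample, called without pooling. The fold enrichment at the summit is a ratio computed by the authors' peak caller. The deposited −log10 p-value and −log10 q-value columns come from the same caller, with q up to its limit of 0.05, and the deposited score was not used for any result.

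From these lists, a peak was given to a gene when its summit lay in an exon of GENCODE version 44 (protein-coding genes first where exons overlap). The exon or region named for a peak is that of its summit, and some peaks extend beyond that exon. The lists carry no strand, so overlapping genes are uncertain. Regions, motifs within 50 nt, 95% Wilson intervals and pairs of peaks were computed in Python 3.11.15 with pandas 2.3.3, numpy 2.4.6, scipy 1.17.1 and pysam 0.24.0, and were tested on simulated data. With 2 libraries of 1 group and no values for the 2 input samples, no test between groups was possible, and counts stand beside those of all protein-coding genes. All 31 genes are named, with values for each member with an exonic peak. Sequences are those of the strongest shared peaks, leaving out chromosome 8. The related genes and markers are fixed lists. The members and lists were chosen with earlier results of these data known. The alternatives were stricter peak thresholds, other rules of assignment and sharing, other windows, another transcript, the peak midpoint, equal list lengths and leaving out a replicate.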

Additional observations from a re-analysis of the deposited data

Results flagged for a closer look

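Replicate 2 listed 5 peaks with their summit inside a member's gene body but outside its exons, which is above the 3 that a count of 0 allows. Replicate 1 also listed such peaks, there were no control lists, and the share over all genes was not computed, so the number says nothing particular about these genes. Of these, 3 lay in introns of KLF12, with fold enrichments of 3.44, 5.51 and 5.66, and none of the 3 overlapped a replicate 1 peak. The other peaks lay in exons of SP2-AS1 (5.76) and of the lncRNA gene ENSG00000289987 within KLF4 (2.22), and both overlapped a replicate 1 peak. Replicate 1 listed 2, both in exons of SP2-AS1 (4.81 and 7.31).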

How the results depend on the processing

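Of 51 recomputed values over 12 results, 38 stayed within the limits set for a change, 13 moved and 0 reversed. A fold enrichment of 5 or more left 9 members with a peak in both replicates (KLF2, KLF7, KLF9, KLF10, KLF11, SP4, SP6, SP8 and EGR1), 32 and 13 exonic peaks in replicates 1 and 2, and 40.6% of replicate 1 peaks shared, whereas q of 1e-05 or less kept the same 19 members. Of the replicate 2 peaks, 81.0% were shared at an overlap of 50% of both peaks and 83.3% with summits within 100 bp. GGAC was found at 17.7% and 23.8% of summits within 25 nt, at 71.0% and 71.4% within 100 nt, and at 39.0% around the midpoint of replicate 2 peaks. A stop codon window of 100 nt held 14.3% of replicate 2 summits. The strongest peak of each member had a median fold enrichment of 6.79 in replicate 1. For the alternatives above, no values over all protein-coding genes are given. They therefore do not show how the comparison with all genes would change. Without replicate 2 the members with a peak numbered 21, and without replicate 1 they numbered 19. No paired analysis was possible because only the m6A IP group had values. The cause of these shifts was not tested beyond the construction of each alternative.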
